A study of Homo sapiens with 24 samples.

Results

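The quantity described is the gain of HuR enrichment with cytokine stimulation after 18 h in the human bronchial epithelial line BEAS-2B. For each transcript it is the log2 ratio of the HuR immunoprecipitate (HuR IP) to the IgG1 control immunoprecipitate (IgG1 IP) in stimulated cells, minus the same ratio in untreated cells. It is called the difference of ratios below, and a value of 1 stands for a doubling of the enrichment. It uses 12 of the 24 arrays of the series and 355 of the 384 probes, those with a value in all arrays, with no choice of genes by their values. The 12 arrays form 4 groups of 3: the HuR IP and the IgG1 IP of cells that received TNFα plus IFNγ (50 ng/ml of each) for 18 h, and the HuR IP and the IgG1 IP of cells kept in PBS alone for 18 h. Each group holds 1 array from each of set 1, set 3 and set 4, which are the replicate numbers of the labels, so the difference can be formed within a set. The design text calls them 3 biological replicates. The labels name R&D as the source of the HuR antibody for stimulated samples and Santa Cruz Biotechnology for untreated samples, whereas the protocol names 1 anti-HuR clone, 3A2. If the antibody source did differ, it cannot be told apart from stimulation.

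HuR, encoded by ELAVL1, binds AU-rich and U-rich stretches of RNA, mostly in the 3′ untranslated regions of messenger RNAs, and is known for slowing the decay of many transcripts of cytokines, chemokines and growth control. TNFα acts through NF-κB and IFNγ through JAK-STAT signalling, and in airway epithelium both induce chemokines that draw leukocytes. An immunoprecipitate recovers bound RNA together with RNA that sticks without specificity, and the IgG1 arm measures the second. A transcript that stimulation makes more abundant can rise in both arms, and the difference of ratios subtracts the IgG1 change from the HuR change.

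Levels are log2 intensities minus the median of their array. The array medians of intensity were 13094, 8131 and 14049 in the HuR IP of stimulated cells (sets 1, 3 and 4) and 3021, 2303 and 12399 in their IgG1 IP, against 18857, 4472 and 7052 in the HuR IP of untreated cells and 11831, 5655 and 15945 in their IgG1 IP. The medians alone therefore gave a difference of ratios of 1.44, 2.16 and 1.36 in sets 1, 3 and 4, with a mean of 1.65 ± 0.44 (SD, n = 3 sets, 3.14-fold), and centring removes it. All values below are relative to it, and whether it reflects a shared gain of bound RNA or array brightness was not tested. None of 7 epithelial markers and none of 8 housekeeping genes has a value, so the labelled cell type could not be checked. Of 20 leukocyte markers 8 were measured, and their median level per array ran from -0.80 to 0.22. In the 3 h arrays 1 of the 8 lay above the array median. Their median there was -0.35, within the range of the dimmest 89 transcripts (-0.57 to -0.23).

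No transcript had a difference of ratios that passed the test. With limma over all 24 arrays, 0 of 355 transcripts (0%) had a Benjamini-Hochberg adjusted p under 0.05, and 0 (0%) had an unadjusted p under 0.05. The smallest unadjusted p was 0.0681, for CCL20, and the adjusted p of every transcript was 0.994. The differences had a median of 0.01 and an SD over transcripts of 0.464. Their quartiles were -0.36 and 0.25, and the ends were -1.38 for CDKN2B and 1.59 for CXCL3. Above 0 were 182 of the 355, above 1 were 9 and below -1 were 10. The SE of a single difference had a median of 0.448 and ran from 0.212 to 2.50. The 95% confidence interval lay within 1 log2 unit of 0 for 124 transcripts and within 2 for 271. For the others this fit leaves room for a change of more than 4-fold in at least 1 direction. It has no term for the set, so its SEs and intervals hold differences in level between sets.

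The 3 sets did not give the same picture. In set 1 the difference of ratios was above 1 for 79 transcripts and below -1 for 14, in set 3 for 6 and 88, and in set 4 for 13 and 56. Medians over transcripts were 0.15, -0.28 and 0.02 in the same order. Across the 355 transcripts, Pearson's r between sets was -0.398 for sets 1 and 3, -0.311 for sets 1 and 4, and 0.512 for sets 3 and 4. These are descriptions, because transcripts of 1 array share its label and exposure.

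The direction followed how bright a transcript was. With the level taken from the 3 h arrays, which do not enter the difference, r between level and difference was 0.525 for set 1, -0.704 for set 3 and -0.559 for set 4. The brightest 89 transcripts had median differences of 1.08, -1.41 and -0.95 by set, and the dimmest 89 had -0.34, 0.35 and 0.41. Among bright transcripts, NFKBIA, an inhibitor of NF-κB, gave 1.38, -1.73 and -1.74 in sets 1, 3 and 4.

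**Figure D1:**
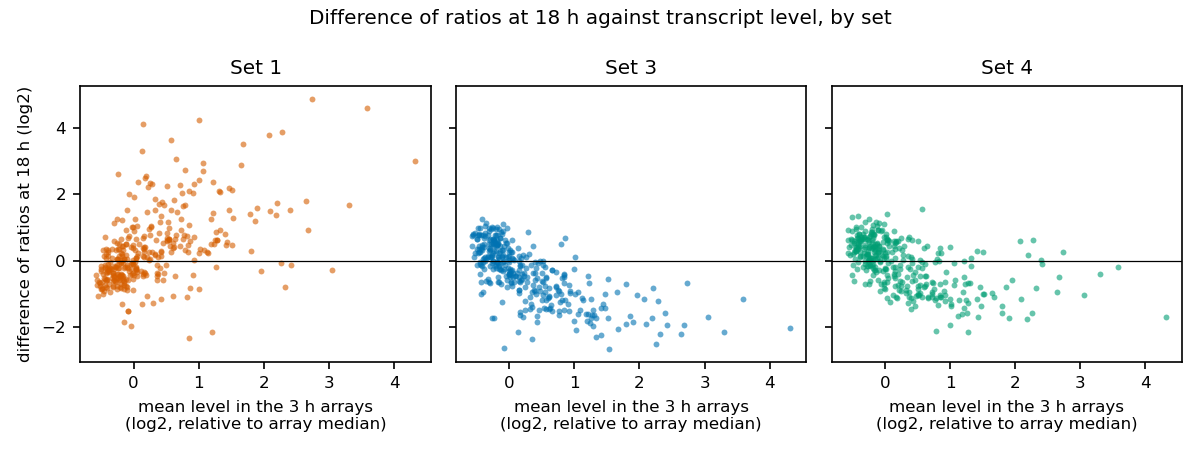
Each point is a transcript, with its mean log2 level in the 3 h arrays (relative to the array median) on the x axis and its log2 difference of ratios at 18 h on the y axis, in set 1 (left), set 3 (middle) and set 4 (right). Bright transcripts lie mostly above 0 in set 1 and mostly below 0 in sets 3 and 4, with correlations of 0.525, -0.704 and -0.559. The plot leaves out 5 transcripts.

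The spread of levels within an array moved with that pattern. The distance from the 10th to the 90th percentile of the levels was 2.89, 1.22 and 2.15 in the HuR IP of stimulated cells (sets 1, 3 and 4) and 1.34, 3.19 and 2.22 in their IgG1 IP, against 1.29, 1.27 and 3.03 in the HuR IP of untreated cells and 1.80, 1.30 and 1.54 in their IgG1 IP. Combined as the difference of ratios is, these spreads gave 2.07, -1.94 and -1.56 by set, the same signs as the correlations with level. Quantile normalization gives every array the same spread, and with it those correlations were 0.175, -0.08 and -0.03. The spreads and the differences of ratios come from the same arrays, so their matching signs are not a separate test. Quantile normalization removes differences in spread by construction, so the smaller correlations do not test the spread as a cause either. What sets the spread of an array was not tested.

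Several of the largest positive means belonged to chemokines, small secreted proteins that attract leukocytes. Of the 15 transcripts with the highest mean difference, 8 encode chemokines, as do 33 of all 355 (9.3%). PTGDR2 and ZFPM2, which are no chemokines, had the ranks 4 and 6. Of the same 15, 11 were above 2 in set 1, 10 were below 0 in set 3 and 5 had the same sign in all sets. Over all 355, 79 were above 1 in set 1, and only 134 were above 0 in set 3, so most transcripts lay below 0 there. In every set 22 of the 355 were above 0 and 28 below. None of the 15 lowest encodes a chemokine, and all 15 were below 0 in set 3.

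CXCL1, CXCL2 and CXCL3 encode close paralogs that draw neutrophils through CXCR2. CXCL3 had levels of 4.75, 0.23 and 0.31 in the HuR IP of stimulated cells (sets 1, 3 and 4) and 1.60, 0.22 and 0.14 in their IgG1 IP, against 2.27, -0.10 and -0.51 in the HuR IP of untreated cells and 3.36, -0.0036 and -0.25 in their IgG1 IP. All 4 arrays of set 1 were brighter than the 8 arrays of sets 3 and 4. Its differences were 4.24, 0.10 and 0.43, with a mean of 1.59 ± 1.92 (SE of the limma fit, adjusted p 0.994, 3.01-fold). It was 0.26 without set 1, and 0.09 when only the HuR IP of stimulated cells in set 1 was left out. Here and below, the fits with 1 array left out have no term for the set. Differences in level between sets therefore enter their values.

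CXCL2 had levels of 5.19, 2.76 and 5.01 in the HuR IP of stimulated cells and 1.36, 3.61 and 3.00 in their IgG1 IP, against 1.66, -0.03 and 1.83 in the HuR IP of untreated cells and 2.72, 0.17 and 0.07 in their IgG1 IP. The HuR IP of stimulated cells held the highest value in sets 1 and 4, and the IgG1 IP of stimulated cells held it in set 3. In sets 1, 3 and 4 the difference was 4.88, -0.66 and 0.25, with a mean of 1.49 ± 1.19 (adjusted p 0.994), and -0.20 without set 1. CXCL1 gave 3.88, -1.21 and 0.63, with a mean of 1.10 ± 1.25, and -0.29 without set 1.

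CCL2, CCL8 and CCL13 encode monocyte chemoattractant proteins, another group of close paralogs. The probe sequences are not used here, so signal that a probe may pick up from a paralog cannot be told apart from its own. CCL13 had levels of 4.32, 0.84 and 1.80 in the HuR IP of stimulated cells and 0.20, 1.52 and 0.65 in their IgG1 IP, against 0.18, -0.30 and -0.65 in the HuR IP of untreated cells and -0.29, -0.13 and -0.23 in their IgG1 IP. The 6 arrays of stimulated cells all lay above the 6 of untreated cells, by the smallest of margins at 0.20 against 0.18. In stimulated cells the HuR IP exceeded the IgG1 IP in sets 1 and 4 and not in set 3. The difference of ratios was 3.65, -0.50 and 1.57, with a mean of 1.57 ± 0.87 (unadjusted p 0.086, adjusted p 0.994, 2.98-fold), and 0.54 without set 1.

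CCL8 had levels of 4.69, 3.58 and 5.37 in the HuR IP of stimulated cells and 0.47, 4.83 and 3.65 in their IgG1 IP, against 0.19, 0.33 and 1.51 in the HuR IP of untreated cells and -0.24, 0.42 and 0.37 in their IgG1 IP. The lowest of the 3 HuR values in stimulated cells was above the highest in untreated cells, but in set 3 the IgG1 IP of stimulated cells exceeded their HuR IP. Set by set, the difference was 3.80, -1.15 and 0.58, with a mean of 1.08 ± 1.28. It was -0.28 without set 1, and -0.18 when only the IgG1 IP of stimulated cells in set 1 was left out. CCL2 gave 4.59, -1.16 and -0.20, with a mean of 1.08 ± 1.27. It was -0.68 without set 1 and -0.13 when the same IgG1 array was left out.

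CCL20, which attracts cells bearing CCR6 and is made by airway epithelium, had the smallest p of all. Its levels were 1.61, -0.05 and 0.14 in the HuR IP of stimulated cells and -0.18, -0.29 and -0.34 in their IgG1 IP, against -0.05, -0.37 and -0.90 in the HuR IP of untreated cells and -0.32, -0.50 and -0.46 in their IgG1 IP. The HuR IP of stimulated cells in set 1 was the brightest array by far, and in stimulated cells the HuR IP exceeded the IgG1 IP in all 3 sets. By set, the difference of ratios was 1.52, 0.11 and 0.91, with a mean of 0.85 ± 0.44 (adjusted p 0.994, 95% confidence interval -0.07 to 1.76). It was 0.51 without set 1 and 0.33 without the HuR IP of stimulated cells in set 1 alone.

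**Figure D2:**
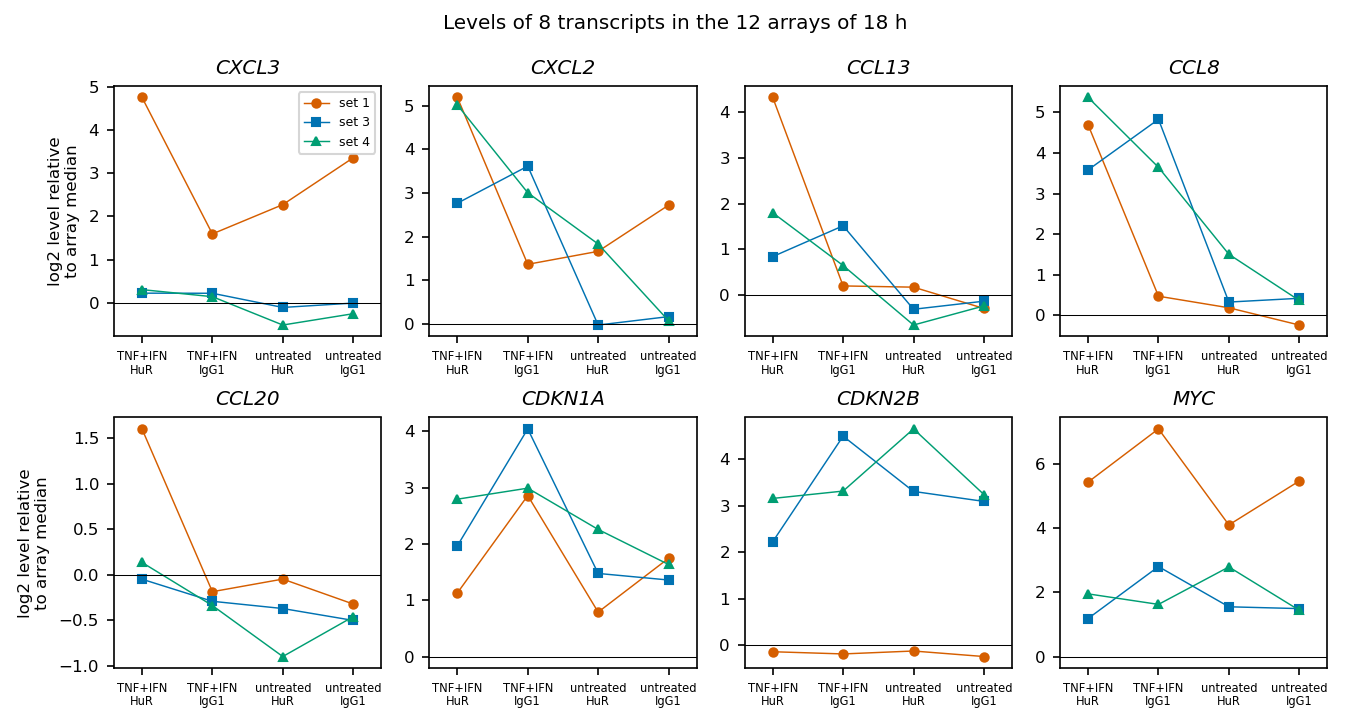
Each panel shows 1 transcript, with its log2 level relative to the array median on the y axis. On the x axis stand the HuR IP and IgG1 IP of stimulated cells (TNF+IFN) and the HuR IP and IgG1 IP of untreated cells, all at 18 h. A line joins the 4 arrays of a set for reading only. For CXCL2, CCL13 and CCL8 the line of set 1 drops from the HuR IP to the IgG1 IP of stimulated cells, and that of set 3 climbs.

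A single sign in every set was found for 22 transcripts above 0 (6.2% of 355) and for 28 below 0 (7.89%). An exact sign-flip test over 3 sets cannot give a p under 0.25, so these counts are a description. After CXCL3, PTGDR2, a receptor for prostaglandin D2, had the highest mean of the 22, at 1.12 ± 1.11. Its sets gave 2.30, 0.88 and 0.18, and without the HuR IP of stimulated cells in set 1 the mean was 0.18. CCL20 came next, then IL10, an anti-inflammatory cytokine, at 0.78 ± 0.93, and AMHR2, a receptor for anti-Müllerian hormone, at 0.75 ± 1.35. Leaving out a single array turned both: IL10 was at -0.05 without the HuR IP of stimulated cells in set 1, and AMHR2 at -0.17 without the IgG1 IP of untreated cells in set 1. Both were above 0 within every set, and these turns hold differences in level between sets. Below them came the chemokine receptors CCR1 (0.59) and CCR4 (0.58) and the chemokines CCL19 (0.54) and CCL15 (0.51).

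CCR4, a receptor found on T helper cells, had the smallest spread among those 4, with 0.46, 0.50 and 0.79 in sets 1, 3 and 4. Its levels were 0.42, -0.09 and -0.40 in the HuR IP of stimulated cells and 0.10, -0.70 and -0.55 in their IgG1 IP, against -0.19, -0.05 and -0.98 in the HuR IP of untreated cells and -0.06, -0.16 and -0.34 in their IgG1 IP. All 12 values lie within 1 log2 unit of the array median. CCR1, CCL19 and CCL15 had mean levels of -0.42, -0.007 and -0.14 in the 3 h arrays, so CCL19 was at the array median there.

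CDKN2B, which encodes the cyclin-dependent kinase inhibitor p15, had the lowest mean of the 28 transcripts below 0 in every set, with levels of -0.15, 2.22 and 3.16 in the HuR IP of stimulated cells and -0.19, 4.50 and 3.32 in their IgG1 IP, against -0.13, 3.31 and 4.66 in the HuR IP of untreated cells and -0.25, 3.09 and 3.24 in their IgG1 IP. In set 1 all 4 arrays were just below the array median, and in sets 3 and 4 all 8 were well above it. The difference of ratios was -0.07, -2.49 and -1.57, with a mean of -1.38 ± 2.16 (adjusted p 0.994). Leaving out 1 array moved it to between -2.75, without the HuR IP of untreated cells in set 1, and -0.24, without their IgG1 IP in set 1.

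CDKN1A, which encodes the inhibitor p21 and is a described HuR ligand, had levels of 1.13, 1.97 and 2.80 in the HuR IP of stimulated cells and 2.86, 4.05 and 2.99 in their IgG1 IP, against 0.79, 1.48 and 2.26 in the HuR IP of untreated cells and 1.75, 1.36 and 1.64 in their IgG1 IP. The HuR IP was below the IgG1 IP in all 3 sets of stimulated cells and in set 1 of untreated cells. In sets 1, 3 and 4 the difference was -0.77, -2.20 and -0.82, with a mean of -1.26 ± 0.82 (unadjusted p 0.142, adjusted p 0.994).

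MYC, a transcription factor of growth and another described HuR ligand, had levels of 5.45, 1.19 and 1.96 in the HuR IP of stimulated cells and 7.11, 2.81 and 1.63 in their IgG1 IP, against 4.11, 1.55 and 2.80 in the HuR IP of untreated cells and 5.48, 1.50 and 1.45 in their IgG1 IP. Set 1 was far above the other sets in every group. The 3 sets gave -0.29, -1.68 and -1.02, with a mean of -0.998 ± 2.22, and the fit gave 0.63 without the IgG1 IP of stimulated cells in set 1. With that array missing the sets are unbalanced, so the higher level of set 1 enters the 0.63.

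COL1A1, a chain of type I collagen, gave -0.85, -1.01 and -1.37, the narrowest range of the 5 lowest with 1 sign, with a mean of -1.08 ± 1.20. MYDGF, a secreted growth factor, averaged -1.16 ± 0.88 and XCR1, the receptor of XCL1, -1.02 ± 1.80. XCR1 turned to 0.88 without the IgG1 IP of stimulated cells in set 1. The rest of the 10 lowest were IL13RA1, a chain of the IL-13 receptor (-0.93 ± 0.65), the growth factor TGFB2 (-0.88 ± 1.03), the transcription factor MEF2A (-0.78 ± 0.49) and the IκB kinase CHUK (-0.78 ± 0.55). None of these means passed. The errors are those of a fit that does not take the set into account, so they hold the differences in level between sets. The same holds for the value of XCR1 with 1 array left out.

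**Figure D3:**
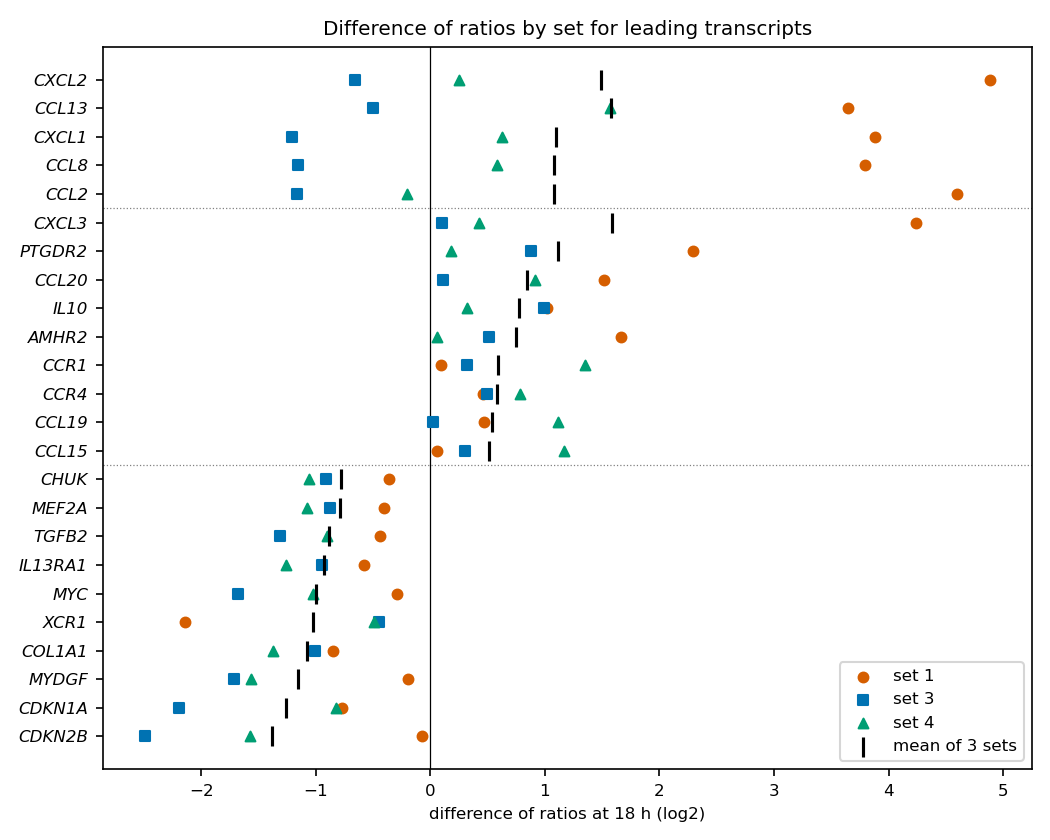
The log2 difference of ratios at 18 h is on the x axis, with a coloured symbol for each set and a black bar for the mean of 3 sets. The top block holds 5 chemokines with high means and mixed signs, the middle block the 9 transcripts named above that were above 0 in every set, and the bottom block the 10 lowest below 0 in every set. Set 1 lies at 3.65 to 4.88 in the top block, where set 3 lies below 0.

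The smallest unadjusted p-values after that of CCL20 belonged to CCL13, VAV1 (0.79 ± 0.44) and CCR1, followed by FADD (-0.71 ± 0.40), GATA3 (-0.53 ± 0.31), CCL21 (0.44 ± 0.27), CCL19, MEF2A and BCL2 (0.36 ± 0.23). VAV1 is a signalling protein of blood cells, FADD the adaptor of death receptors, GATA3 a transcription factor, CCL21 a chemokine of lymphoid tissue and BCL2 an inhibitor of cell death. FADD was below 0 in each set, at -0.45, -0.73 and -0.95, and so was GATA3, at -0.42, -0.46 and -0.70. VAV1 was above 0 in sets 1 and 4 and at -0.37 in set 3. The adjusted p of all 10 was 0.994.

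Of 19 transcripts of chemokines, cytokines and adhesion molecules chosen for their known induction in airway epithelium, 12 had a mean above 0 and none passed. By set the number above 0 was 15, 3 and 15, and CCL20 alone was above 0 in all. Over all 355 transcripts, 182 had a mean above 0. By set 199, 134 and 181 of the 355 were above 0, and 22 were above 0 in all. The median of the 19 was 0.37 in the mean of sets, against 0.01 over all 355, and the sets gave 1.43, -1.15 and 0.38. CCL7 (0.45 ± 0.38), CCL11 (0.37 ± 0.36), CXCL8 (0.37 ± 1.24) and TNF (0.43 ± 0.77) had positive means, and CCL5 (0.06 ± 0.97), IL6 (-0.05 ± 0.54) and CX3CL1 (0.09 ± 0.29) had means near 0. IL1B (-0.50 ± 0.73), IRF1 (-0.48 ± 0.72) and VCAM1 (-0.27 ± 0.45) were negative.

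CXCL10 and CXCL11, which draw activated T cells through CXCR3, were bright in both arms of stimulated cells. CXCL10 had levels of 2.40, 3.91 and 5.40 in the HuR IP of stimulated cells and 1.07, 6.41 and 5.91 in their IgG1 IP, against 0.09, -0.25 and -0.91 in the HuR IP of untreated cells and -0.31, -0.03 and -0.31 in their IgG1 IP. Stimulated and untreated arrays did not overlap, and in stimulated cells the IgG1 IP exceeded the HuR IP in sets 3 and 4. The difference of ratios was 0.93, -2.28 and 0.09, with a mean of -0.42 ± 1.52 for CXCL10, and 0.63, -2.36 and 0.66, with a mean of -0.36 ± 1.43, for CXCL11. The mean of CXCL10 was 0.51 without set 3. It was also above 0 when any 1 of 3 single arrays of stimulated cells was left out: 0.56 without the IgG1 IP of set 3, 0.31 without that of set 4 and 0.33 without the HuR IP of set 1.

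ICAM1, an adhesion molecule that binds leukocyte integrins, was likewise brighter in the IgG1 IP than in the HuR IP of stimulated cells in sets 3 and 4. Its levels were 2.35, 3.00 and 4.22 in the HuR IP of stimulated cells and 0.73, 4.88 and 4.92 in their IgG1 IP, against -0.11, 0.12 and 1.76 in the HuR IP of untreated cells and -0.13, 0.15 and 0.74 in their IgG1 IP. The HuR arrays of stimulated and untreated cells did not overlap, and the IgG1 arrays did. By set, the difference of ratios was 1.60, -1.85 and -1.72, with a mean of -0.66 ± 1.30. It was 0.03 without the IgG1 IP of stimulated cells in set 3 and 0.05 without that of set 4.

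The gene lists are described by counts and medians beside all 355 transcripts, of which 182 were above 0 with a median of 0.01. In the mean of sets, the dimmest 89 transcripts had a median of 0.15 and the brightest 89 one of -0.45. The lists differ in level, with medians in the 3 h arrays from -0.37 for Toll-like receptors to 0.92 for the MYC and MAX list. What level contributes to the median of a list was not tested. No member of any list passed. All 20 measured CC chemokines had a mean above 0, from 0.01 for CCL25 to 1.57 for CCL13, with a median of 0.38. Above 0 were 11 of them in set 1, 13 in set 3, 19 in set 4 and 6 in every set. Over all 355 transcripts the counts were 199, 134, 181 and 22 in the same order. Only 3 of the 20 had a level above the array median in the 3 h arrays, against 190 of all 355, so most sat among the dim transcripts. Of the 13 other chemokines, 10 were above 0, with a median of 0.33, and they ranged from -0.80 for XCL2 to 1.59 for CXCL3. Of 16 chemokine receptors, 10 were above 0, with a median of 0.11, and set 1 had 4 of them above 0 where set 3 had 12 and set 4 had 13.

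Genes inducible by IFNγ had the lowest median of the lists with 5 or more measured members, at -0.42, with 5 of 15 above 0. The medians by set were 0.70, -1.64 and -0.13, and the median turned to 0.23 without set 3 and was -0.84 without set 1. Genes inducible by NF-κB had 18 of 34 above 0 and a median of 0.07, with 0.42, -0.81 and 0.26 by set. They ran from -0.70 for NFKBIA to CXCL3. The described HuR ligands and mRNAs with AU-rich elements had 18 of 30 above 0 and a median of 0.14, between CDKN1A at the low end and CXCL2 at the high end. On all 3 lists the sets differed by more than the distance of the median from that of all transcripts.

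Components of the NF-κB pathway had a median of -0.25 and 6 of 27 above 0, from -1.01 for TRADD, an adaptor of TNF receptor 1, to 0.65 for TRAF5. By set their medians were 0.42, -0.73 and -0.62, the median was -0.77 without set 1, and 23 of the 27 were brighter than the array median in the 3 h arrays. JAK-STAT and SOCS genes had a median of -0.25 and 4 of 13 above 0, with JAK1 at -0.70 and SOCS3, a feedback inhibitor, at 0.43. MAP kinases and calcineurin-NFAT genes had a median of -0.21 and 8 of 23 above 0, with MAPK8, the kinase JNK1, at 0.36. AP-1, ATF and CREB factors had a median of -0.18 and 3 of 9 above 0, from -0.73 for FOSL1 to 0.32 for JUND. MAPK8 and JUND were both above 0 in set 1 and below 0 in sets 3 and 4. SMAD, activin and BMP signalling had a median of -0.10 and 8 of 24 above 0, from TGFB2 to 0.63 for TGIF1. The list of the MYC and MAX network, SP, RUNX and coactivators had a median of 0.06 with 8 of 15 above 0, and 5 of its members, MYC included, were below 0 in every set.

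Interleukins had a median of 0.01 and 11 of 20 above 0, from -0.51 for IL15 to IL10. Interleukin receptors had a median of -0.04 and 9 of 20 above 0, from -1.17 for IL6ST, the shared signalling chain of the IL-6 family, to 0.23 for IL2RG. TNF superfamily ligands had 5 of 7 above 0 (median 0.12), from -0.17 for FASLG to 0.82 for TNFSF11, and TNF receptors 6 of 8 (median 0.05), from -0.70 for LTBR to 0.22 for CD27. Toll-like receptors and adaptors had 8 of 13 above 0 (median 0.07), from -0.84 for IRAK1 to 0.34 for TLR10. IL6ST, LTBR and IRAK1, at the low ends of 3 of these lists, were each above 0 in set 1 and below 0 in sets 3 and 4. Adhesion molecules had 7 of 11 above 0 (median 0.18), with ICAM1 the lowest. The 8 leukocyte markers had a median of 0.15 with 5 above 0, from -1.23 for CD3G to 0.59 for CD86. Both measured complement genes, C3 (-0.60) and CFB (-0.51), were below 0. Quantile normalization turned the sign of the median for chemokine receptors (-0.02), interleukins (-0.17), NF-κB pathway genes (0.04), adhesion molecules (-0.12), complement (0.0039) and the MYC and MAX list (-0.20). CC chemokines and other chemokines kept a positive median, each at 0.17, with CCL25 at -0.41. With 1 set left out at a time the median turned sign in at least 1 case for 13 of the 20 lists, and stayed positive for CC chemokines (0.18 to 0.45) and other chemokines (0.08 to 0.51).

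**Figure D4:**
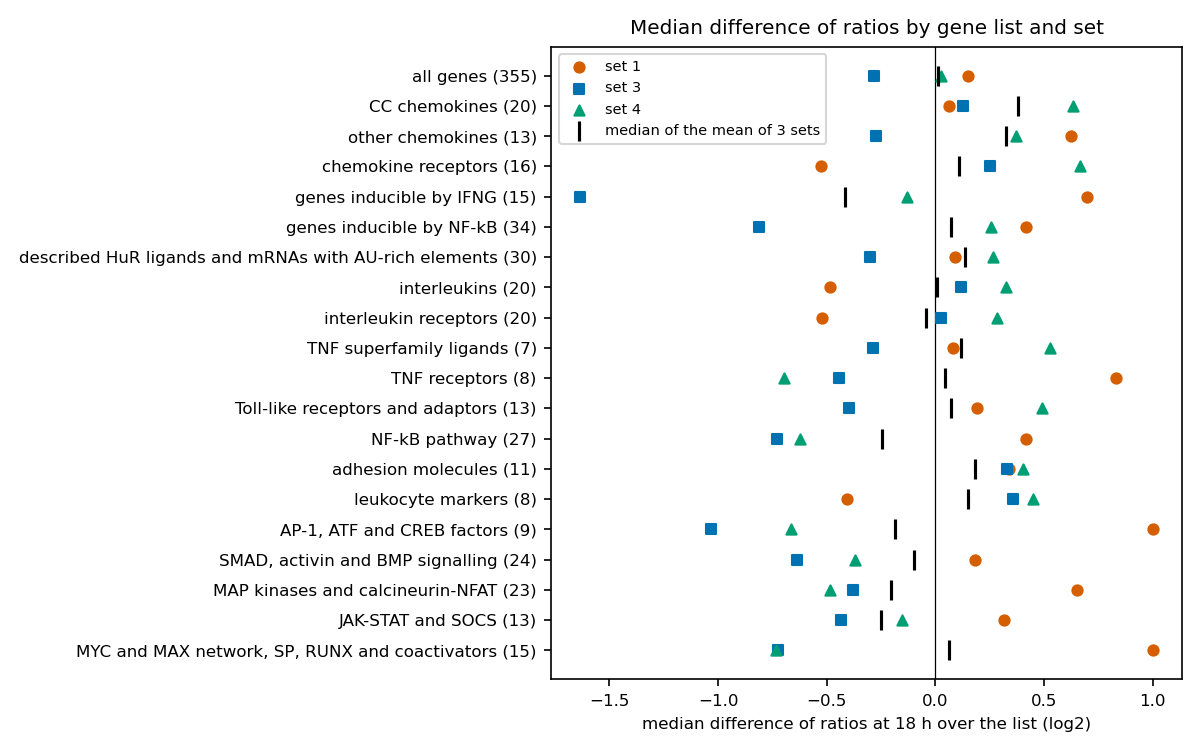
The median log2 difference of ratios at 18 h over the measured members of each gene list (number in brackets) is on the x axis. A coloured symbol stands for each set. The black bar is the median over members of their mean of 3 sets, not the mean of the 3 symbols. Set 1 lies to the right of sets 3 and 4 for NF-κB pathway genes (0.42, -0.73 and -0.62) and to the left of them for chemokine receptors (-0.53, 0.25 and 0.67).

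With quantile normalization CCL8, CCL13, CXCL1 and CXCL2 took 1 sign in all sets. CCL8 then gave 2.11, 1.70 and 1.22 by set, with a mean of 1.68 ± 0.84. CCL13 gave 1.94, 0.92 and 1.07, with a mean of 1.31 ± 0.61, CXCL1 gave 2.02, 0.58 and 1.05, with a mean of 1.22 ± 0.95, and CXCL2 gave 2.41, 1.03 and 0.37, with a mean of 1.27 ± 1.03. Centring had left each of these 4 below 0 in set 3. CXCL8 (0.39 ± 0.94) and CCL20 (0.47 ± 0.33) were also above 0 in every set, whereas CXCL10 (-0.39 ± 1.26) and IL1B (-0.62 ± 0.65) were below 0 in every set. CCL2 stayed mixed, at 1.31, 0.75 and -0.41. In the same model the adjusted p of every one of these was 0.997, and CCL13 had an unadjusted p of 0.045.

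With quantile values 18 transcripts (5.07%) were above 0 in every set and 27 (7.61%) below. Of the 22 and 18 above 0 by the 2 scalings, 6 were shared (27.3% and 33.3%): CCL15, CCL20, CCR4, CXCL3, ICAM4 and MGC27165. Of the 28 and 27 below 0, 11 were shared (39.3% and 40.7%): CHUK, GATA3, IL10RB, IL13RA1, JAK2, MAPK14, MECOM, MEF2A, MYDGF, NFAT5 and TGFB2. CDKN2B, CDKN1A and MYC were not among them. CDKN2B moved to -0.16 ± 2.11 and CDKN1A to -0.37 ± 0.64, with -1.89, -0.27 and 1.03 by set.

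**Figure D5:**
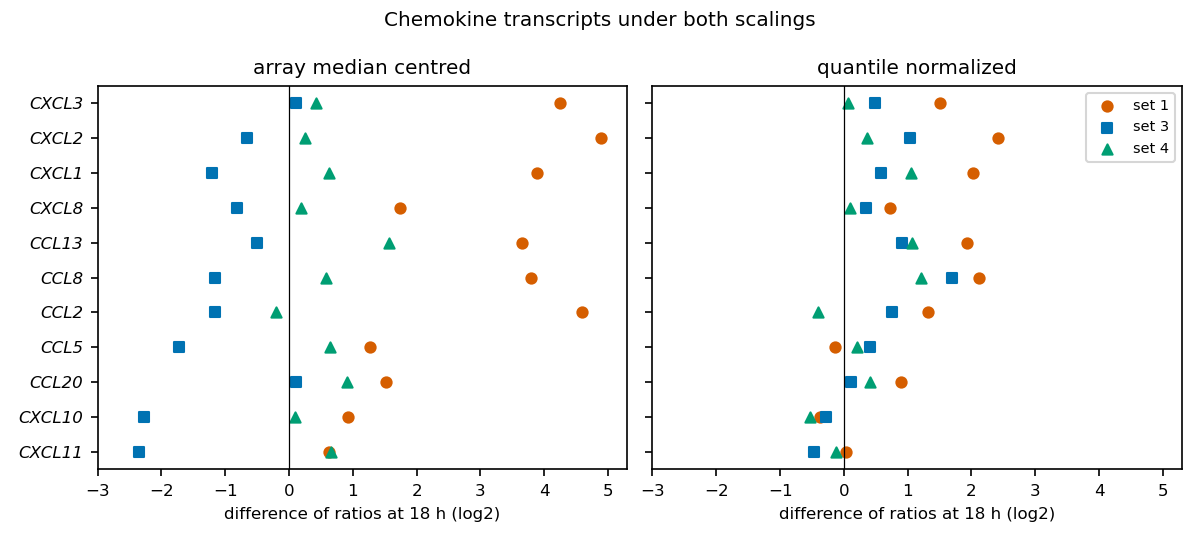
The log2 difference of ratios at 18 h for 11 chemokine transcripts is on the x axis, by set, with arrays centred on their median (left) and with quantile normalization (right). In the right panel all 3 sets of CCL8 lie between 1.22 and 2.11, and those of CXCL10 lie between -0.52 and -0.28.

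At 3 h the same quantity comes from 12 other arrays, so the times share no array. The 3 h differences were narrower, with a median of -0.03, an SD over transcripts of 0.252 and a range from -0.74 to 0.52, and none was beyond 1 in either direction. Across transcripts, the means at the 2 times had r = 0.457 after centring and 0.120 after quantile normalization. Within sets 1, 3 and 4 it was -0.026, 0.730 and 0.224 after centring and 0.070, 0.275 and -0.191 after quantile normalization, so set 3 alone had a high value. CXCL3 was at 0.29 at 3 h and 1.59 at 18 h, CCL13 at 0.23 and 1.57, CXCL2 at 0.30 and 1.49, CCL8 at -0.13 and 1.08, and CDKN1A at -0.24 and -1.26. CCL20 was above 0 in every set at both times, with 0.64, 0.19 and 0.39 at 3 h. The 18 h difference minus the 3 h difference passed for 0 of 355 transcripts (0%) by limma. None had an unadjusted p under 0.05, the smallest p was 0.116, and the median SE of that comparison was 0.634.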

How the data were processed

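Intensity values were deposited by the authors in a table whose file name calls it non-normalized. Image analysis and background treatment are not given in the sources used. Per the labels, 33P-labelled cDNA was hybridised to a membrane array. From the deposited intensity, log2 values minus the array median were computed over the 355 measured probes. The other 29 of 384 hold no value. Names came from accessions for 342 probes (RefSeq genes) and from the file for 13. Limma 3.58.1 in R 4.3.3 (lmFit, eBayes) was fitted to all 24 arrays with 1 coefficient per group, and p-values were adjusted by Benjamini-Hochberg over 355 transcripts at a threshold of 0.05. The fit was run on simulated arrays with independent noise and no effect of the set. That run does not show how the fit performs on these arrays. The number of arrays limits the precision. Transcripts are named by rule: the 10 highest and 10 lowest with 1 sign in all 3 sets, the 10 smallest p-values, 19 listed transcripts and the ends of 20 gene lists with members. Transcripts shared between scalings and those in the additional observations were named after their values were seen. Members and lists were chosen with earlier results of these data known. Alternatives were another scaling (none, quantile, 75th percentile, a second deposited table), normexp with an offset of 50, dim probes left out, set as a block, array weights and arrays left out in turn. Of the genes, 5 are counted but not reported by name here, and the rule passes over them.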

Additional observations from a re-analysis of the deposited data

How the results depend on the processing

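For the 18 h difference of ratios and for 18 h minus 3 h, 0 transcripts passed in limma under every alternative tried but 1, at adjusted p-values of 0.117 or above. Deviations from the group means were correlated above 0.1 for 17 of 18 pairs of arrays of the same set (0.03 to 0.687). What the arrays of a set share was not tested. With the set as a replicate block 0 of 355 passed, and 4 transcripts above 0 and 12 below had an unadjusted p under 0.05. Of the 10 lowest with 1 sign, 6 were among those 12, such as COL1A1 with an SE of 0.462 (unadjusted p 0.032, adjusted p 0.893 by limma). The 10 were picked by the same differences of ratios, so the overlap is not a separate test. Unadjusted counts were 142 above and 0 below with the second deposited table, 2 and 24 without set 1, and 2 and 12 without the IgG1 IP of stimulated cells in set 1. After quantile normalization with the replicate block, tested on differences within sets, 1 transcript passed and is the exception, CCL8 (1.68, adjusted p 0.0193). With the set as a block in the quantile fit of all arrays, 0 passed and the smallest adjusted p was 0.995. Both combinations were chosen after seeing the data. Without normalization the median of all transcripts was 1.66, and the second deposited table gave 1.99, so 322 and 320 transcripts were above 0 in every set and 0 and 0 below. With dim probes left out 177 transcripts remained, 4 above 0 in every set and 18 below.

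Over lists, the median for CC chemokines was 0.87 with normexp and 1.08 without dim probes, and for other chemokines 0.87 with normexp. Normexp gave interleukins -0.80 and their receptors -0.68, and turned genes inducible by IFNγ to 0.05 and NF-κB pathway genes to 0.04. Without dim probes chemokine receptors were at -0.73, Toll-like receptors at -0.45 and leukocyte markers at -0.32. Interleukins were at -0.24, genes inducible by NF-κB at -0.12 and described HuR ligands at -0.0086. All of these turned from positive. The 177 transcripts kept were not centred again, and their own median was -0.27, with 55 above 0. Interleukins, genes inducible by NF-κB and described HuR ligands were above that median. Adhesion molecules were at -0.12 with quantile normalization and at -0.061 to 0.24 with 1 set left out, and SMAD, activin and BMP signalling at -0.56 to 0.0095. With 1 set left out the other lists that turned were genes inducible by IFNγ (-0.84 to 0.23), the MYC and MAX list (-0.84 to 0.18), NF-κB pathway (-0.77 to 0.061), TNF receptors (-0.40 to 0.24), TNF ligands (-0.14 to 0.32), Toll-like receptors (-0.14 to 0.18), chemokine receptors (-0.11 to 0.41), HuR ligands (-0.043 to 0.20), genes inducible by NF-κB (-0.26 to 0.30), interleukin receptors (-0.26 to 0.29) and interleukins (-0.066 to 0.20). AP-1 factors ran from -1.02 to -0.080, MAP kinases from -0.47 to -0.028, JAK-STAT genes from -0.55 to -0.072, complement from -0.98 to -0.15 and leukocyte markers from 0.029 to 0.38.

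Of 75 named transcripts, 38 changed sign under at least 1 alternative, and the cause was not tested. For no normalization, 75th percentile centring and the second deposited table, the shift common to all transcripts was taken off before this count. The signs of all 75 stayed the same there for that reason. Without that step all 355 transcripts were above 0 with no normalization and with the second deposited table. Quantile normalization, with or without the replicate block, gave CX3CL1 -0.11, CCL25 -0.41, CFB 0.12, FASLG 0.022, IRAK1 0.18, LTBR 0.25, NFKBIA 0.15, TGFBI 0.0044 and CEBPB 0.041. Normexp background correction gave CXCL10 0.048, CXCL11 0.78, CX3CL1 -0.29, IRF1 0.25, IL2RG -0.71 and NFKBIA 0.56. Array weights, whose estimation stopped before full convergence, gave XCR1 0.13, CCL5 -0.30, CCL25 -0.11, FASLG 0.44, JUND -0.26 and XCL2 0.21. Leaving out 1 array or 1 set at a time turned 35 of the 75. The fits with 1 array left out have no term for the set, so differences in level between sets enter them.

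Above 0 in all arrays together but not in all such fits were AMHR2 (-0.17 to 1.38), CCL2 (-0.68 to 2.20), CCL25 (-0.33 to 0.43), CCL5 (-1.15 to 1.13), CCL8 (-0.28 to 2.19) and CD27 (-0.13 to 0.77). CX3CL1 (-0.27 to 0.36), CXCL1 (-0.29 to 2.25), CXCL2 (-0.20 to 2.57), CXCL8 (-0.31 to 0.96), IL10 (-0.047 to 1.29) and IL2RG (-0.051 to 0.71) were others. So were JUND (-0.96 to 1.34), MAPK8 (-0.31 to 0.78), MAX (-0.84 to 0.995), SOCS3 (-0.82 to 1.44) and TGIF1 (-0.71 to 1.46). TNF (-0.25 to 0.86), TNFSF11 (-0.010 to 1.52), TRAF5 (-0.34 to 1.31), XCL1 (-0.036 to 1.75) and ZFPM2 (-0.44 to 1.86) complete that side.

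Below 0 in all arrays together but not in all such fits were CFB (-1.34 to 0.11), CXCL10 (-2.11 to 0.56), CXCL11 (-1.96 to 0.73), FASLG (-0.60 to 0.35), ICAM1 (-2.05 to 0.049) and IL6 (-0.79 to 0.72). IRF1 (-1.29 to 0.096), LTBR (-1.38 to 0.025), MYC (-2.34 to 0.63), NFKBIA (-2.17 to 0.29), VCAM1 (-0.54 to 0.22), XCL2 (-2.20 to 1.73) and XCR1 (-2.08 to 0.88) complete that side. No signal over background is given, so the limit that dim probes set is unknown.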

Other observations

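Some transcripts outside the rule for named genes also ranked at the ends and were chosen after their values were seen. ZFPM2, a cofactor of GATA factors, had the sixth highest difference of ratios, at 1.08 ± 1.25 (SE), with 4.11 in set 1, -0.47 in set 3 and -0.40 in set 4. XCL1, a chemokine of lymphocytes, was at 1.07 ± 1.71, with 3.05, -0.27 and 0.44. TGFA, a ligand of the epidermal growth factor receptor, was at 0.87 ± 0.60, with 2.57, -0.56 and 0.60. All 3 were high in set 1 and below 0 in set 3, like CXCL1 and CCL8. At the low end, TGFBI, an extracellular matrix protein, was at -1.16 ± 1.53, with 0.64, -1.97 and -2.15. IPO5, a nuclear import receptor, was at -1.01 ± 0.78, with 0.31, -1.23 and -2.11, and CEBPB, a transcription factor of inflammation, at -0.96 ± 1.35, with 0.48, -2.22 and -1.14. These were above 0 in set 1 and below 0 in sets 3 and 4. None passed (limma, adjusted p 0.994).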
